A study of Arabidopsis thaliana with 12 samples.

Results

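Jasmonate genes were followed in 5-day-old Arabidopsis thaliana seedlings as a set of 41 loci out of 33201 gene rows: 12 synthesis genes, 5 genes of hormone conjugation and turnover, the receptor gene COI1 with 3 MYC factors, 12 JAZ repressor genes with the adaptor gene NINJA, and 7 response genes. The members were named by locus from their known roles, but the set was chosen by a view of earlier results in all 4 comparisons of these same FPKM tables, so every count over it is a description and not evidence about it. Seedlings of the nup1-1 mutant on MS medium with ABA (abscisic acid, a hormone that restrains germination and seedling growth), nup1-1 without ABA, wild-type Col-0 on ABA and Col-0 without ABA gave 3 RNA samples each, 12 in all. The labels give neither the ABA dose nor the nature of the nup1-1 lesion, nor whether samples of a group came from separate sowings, so the spread behind p-values may be technical.

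Jasmonates are made from plastid fatty acids. A lipase releases the fatty acid, a 13-lipoxygenase (LOX) oxygenates it, and allene oxide synthase (AOS) and allene oxide cyclase (AOC) turn the product into OPDA, which OPR3 and later enzymes of the peroxisome convert to jasmonic acid. JAR1 joins the acid to isoleucine. The conjugate brings the F-box protein COI1 together with JAZ proteins, the JAZ proteins are degraded, and MYC factors are freed to activate targets that include the synthesis genes and JAZ genes themselves. In Arabidopsis the pathway is best known from wounding, insect attack and stamen development.

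The authors' deposited tables hold 1 value per group and gene, taken here as FPKM (fragments scaled by gene length and library size), so levels have no SD, and depth per sample is unknown. Errors below are standard errors (SE) on the log2 scale, worked back from each deposited test statistic, and a gene is called at a deposited q under 0.05. The smallest deposited p was 5e-05, which gives a q of 0.000208 for ABA in nup1-1, 0.000716 for ABA in Col-0, 0.00198 for genotype without ABA and 0.000272 for genotype on ABA; these are each table's smallest q. The tables had been scaled separately: over genes at 1 FPKM or more, the same Col-0 ABA group stood 0.20 log2 units above its ABA-table value in the genotype table, and for untreated nup1-1 this shift was -0.20. Levels are therefore compared within a table. NUP1, the gene of the mutated nuclear pore protein, stood at 9.23 FPKM in untreated nup1-1 and 12.8 FPKM in untreated Col-0 in the authors' deposited table (q = 0.243), and at 7.47 FPKM in nup1-1 and 13.8 FPKM in Col-0 on ABA (q = 0.000272); gene-level values do not show which part of the transcript is read.

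Without ABA, the nup1-1 seedlings had more transcript of LOX2, LOX4, VSP1, VSP2, CORI3 and ST2A than Col-0, and on ABA the order of LOX2, LOX4, VSP1 and VSP2 was turned round, with less in nup1-1. ABA raised LOX2, VSP1, VSP2 and CORI3 in Col-0 and lowered LOX2, VSP1 and VSP2 in nup1-1. The turnover genes ST2A and CYP94B3 rose on ABA in both genotypes. The receptor and MYC genes were not called in any of the 4 tables, where 6.6% to 46.6% of all tested genes were called. Of the 41 members, 34 were marked as tested in each table; the others were near or at 0.

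In untreated seedlings 10 members were higher in nup1-1 and 1 was lower, beside 2.68% of all 20004 tested genes called higher and 3.92% called lower. On ABA 5 members were higher and 13 lower in nup1-1, beside 15.4% and 23.3% of all tested genes. ABA raised 7 and lowered 16 members in nup1-1, where 21.2% of all genes were called higher and 25.3% lower. In Col-0 it raised 11 members and lowered 1, beside 7.83% and 7.79% of all genes. The median log2 fold change of the tested members was 0.27 for genotype without ABA, -0.29 for genotype on ABA, -0.33 for ABA in nup1-1 and 0.18 for ABA in Col-0; over all tested genes these medians were -0.02, -0.01, 0.00 and -0.02. With a log2 change of at least 1 also required, ABA raised 4 members in nup1-1 (8.27% of all genes) and 1 member was higher in nup1-1 on ABA (2.95% of all genes).

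**Figure D1:**
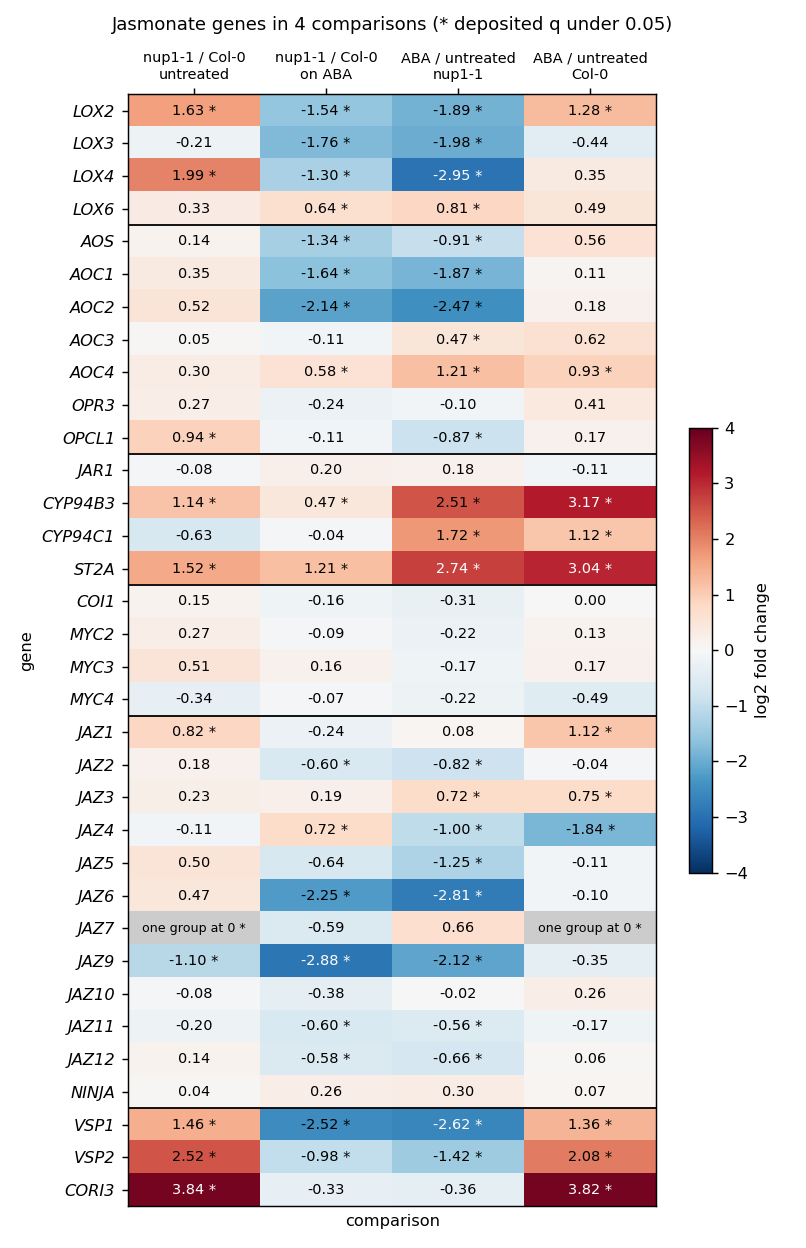
Log2 fold changes of the 34 tested members in the 4 comparisons (columns; red higher and blue lower in the group named first, horizontal lines separate roles). An asterisk marks a deposited q under 0.05, and grey cells have a group listed at 0. Rows LOX2, VSP1 and VSP2 are red for nup1-1 over Col-0 without ABA and blue on ABA, while the COI1 and MYC rows hold no asterisk.

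A set of 3 marker lists show what else moved in these seedlings. The summed level of 10 nuclear photosynthesis genes, of green tissue, was 29636 FPKM in untreated nup1-1 and 50384 FPKM in untreated Col-0, with 1 of 10 called lower, and 6462 FPKM in nup1-1 and 26352 FPKM in Col-0 on ABA, with all 10 lower. The 10 seed reserve genes summed to 5047 FPKM in nup1-1 and 4227 FPKM in Col-0 on ABA, with 3 higher and 4 lower, and to no more than 29.4 FPKM in either untreated group, with 3 lower in nup1-1. The 10 touch and rapid wound-response genes summed to 553 FPKM in untreated nup1-1 and 301 FPKM in untreated Col-0, with TCH3, TCH4 and WRKY33 called higher; on ABA they summed to 206 FPKM in nup1-1 and 371 FPKM in Col-0, with 7 of 10 lower. No gene of the 3 lists was at 0 in any group. The touch list thus lay on the same side as VSP1, VSP2, LOX2 and LOX4 in both media, and its part in their differences was not tested. In bulk RNA of seedlings, fewer cells of a type and less RNA per cell cannot be told apart.

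The sequences before the gene starts are shown for the 3 members with the largest called log2 difference between untreated nup1-1 and Col-0 (CORI3, VSP2 and LOX4), for VSP1, the tandem copy of VSP2, and for the tandem copies AOC1 and AOC2, which fell together on ABA in nup1-1. Each is the 250 bases before the RefSeq gene start on the TAIR10.1 assembly, 5′ to 3′ on the gene's strand, and no annotated exon overlaps any of them. For CORI3, VSP1, LOX4, AOC1 and AOC2 the RefSeq start lies upstream of the authors' gene bound, so distances and motif matches depend on the annotation. Capitals mark AACGTG or its reverse complement CACGTT, a variant of the G-box that MYC factors are known to bind; CACGTG (G-box), GCCGCC (GCC box) and ACGTGTC (a type of ABA-responsive element) were also searched on both strands and are in none of these 6.
CORI3, chr4:12310129-12310378, plus strand: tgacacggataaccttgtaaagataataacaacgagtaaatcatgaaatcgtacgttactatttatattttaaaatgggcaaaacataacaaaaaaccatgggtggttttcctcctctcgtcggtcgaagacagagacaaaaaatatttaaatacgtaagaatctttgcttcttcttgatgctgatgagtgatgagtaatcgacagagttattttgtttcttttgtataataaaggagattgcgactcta
VSP2, chr5:8502225-8502474, minus strand: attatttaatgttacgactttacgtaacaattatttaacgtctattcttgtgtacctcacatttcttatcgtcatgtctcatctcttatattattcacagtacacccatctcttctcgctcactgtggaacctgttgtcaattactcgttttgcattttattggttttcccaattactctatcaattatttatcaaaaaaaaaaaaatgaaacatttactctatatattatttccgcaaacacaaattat
VSP1, chr5:8509202-8509451, minus strand: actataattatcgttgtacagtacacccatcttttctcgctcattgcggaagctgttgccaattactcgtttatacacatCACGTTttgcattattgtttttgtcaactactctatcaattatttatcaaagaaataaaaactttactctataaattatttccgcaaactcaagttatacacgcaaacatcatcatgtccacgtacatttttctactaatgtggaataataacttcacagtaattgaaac
LOX4, chr1:27308263-27308512, plus strand: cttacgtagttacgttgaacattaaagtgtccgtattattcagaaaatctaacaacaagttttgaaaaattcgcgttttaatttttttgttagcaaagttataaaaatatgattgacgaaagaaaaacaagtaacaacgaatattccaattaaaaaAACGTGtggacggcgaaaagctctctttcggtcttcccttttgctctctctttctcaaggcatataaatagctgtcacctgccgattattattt
AOC1, chr3:9403529-9403778, plus strand: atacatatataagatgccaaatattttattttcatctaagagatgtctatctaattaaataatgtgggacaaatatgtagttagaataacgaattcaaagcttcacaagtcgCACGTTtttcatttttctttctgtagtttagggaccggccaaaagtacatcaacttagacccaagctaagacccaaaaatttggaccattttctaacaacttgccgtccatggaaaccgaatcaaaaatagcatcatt
AOC2, chr3:9406419-9406668, plus strand: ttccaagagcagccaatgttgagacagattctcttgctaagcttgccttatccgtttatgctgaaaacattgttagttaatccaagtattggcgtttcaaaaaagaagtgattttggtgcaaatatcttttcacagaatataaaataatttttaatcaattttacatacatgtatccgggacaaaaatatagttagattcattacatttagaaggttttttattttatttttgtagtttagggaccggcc

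The marked hexamer starts 170 bases before the gene start in VSP1, 94 in LOX4 and 138 in AOC1, and CORI3, VSP2 and AOC2 hold none of the 4 motifs in these 250 bases. VSP1 and VSP2 share a run of 23 bases, tactctatcaattatttatcaaa, which begins 142 bases before the VSP1 start and 76 before the VSP2 start. AOC1 and AOC2 share tgtagtttagggaccggcc, 19 bases that begin 117 bases before the AOC1 start and end at the AOC2 start. The AOC2 sequence searched stops there, so the shared run may be longer. Over windows of 300 bases (250 before to 50 after the gene start), AACGTG was in 13 of 41 members (31.7%) and in 8.95% of 27443 protein-coding genes, among them VSP1, LOX3, LOX4, AOC1, AOC2 (outside the 250 bases shown), MYC2 and JAZ6. CACGTG, which shares the letters ACGTG with it, was in 5 members (12.2%) and 7.68% of all promoters, GCCGCC in 2 members (4.88%, PDF1.2 and PDF1.2b) and 2.57% of all, and ACGTGTC in 0 members and 4.33% of all. A match describes the letters and is not a shown binding site.

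Among the 13-lipoxygenase genes, LOX2 carried most of the transcript and changed direction between the media. LOX2 (AT3G45140, chromosome 3, 16525410 to 16529352) had 144 FPKM in untreated nup1-1, against 46.7 FPKM in untreated Col-0, in the authors' deposited table. On ABA it had 44.5 FPKM in nup1-1 and 130 FPKM in Col-0 in the authors' deposited table. The mutant was thus 1.63 ± 0.26 (SE) higher on the log2 scale without ABA and lower on ABA, at -1.54 ± 0.16, each at its table's smallest q. In the ABA tables LOX2 rose in Col-0 by 1.28 ± 0.24 and changed by -1.89 ± 0.18 in nup1-1.

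LOX4, at far lower levels, had the same pattern between genotypes: 1.95 FPKM in untreated nup1-1 against 0.488 FPKM in untreated Col-0, and 0.289 FPKM in nup1-1 against 0.710 FPKM in Col-0 on ABA, in the authors' deposited tables. Its log2 differences were 1.99 ± 0.35 without ABA and -1.3 ± 0.32 on ABA (q = 0.0018 in the authors' deposited table). LOX3 did not pass the test without ABA, with 3.46 FPKM in nup1-1 and 4.01 FPKM in Col-0, and on ABA had 1.00 FPKM in nup1-1 and 3.38 FPKM in Col-0, a log2 difference of -1.76 ± 0.21. LOX3 and LOX4 are 80.6% identical over their aligned coding bases. LOX6 went the other way on ABA, with 25.7 FPKM in nup1-1 and 16.5 FPKM in Col-0 (0.64 ± 0.14), and in nup1-1 it rose by 0.81 ± 0.15 on ABA. LOX2 made up 88.8% of the summed FPKM of these 4 genes in untreated nup1-1 and 76.1% in untreated Col-0; on ABA its share was 62.3% in nup1-1 and 86.3% in Col-0, and LOX6 held 35.9% in nup1-1 and 10.9% in Col-0 (all shares from the ABA tables).

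Of the 7 later synthesis genes tested, 1 was called between genotypes without ABA and 4 on ABA. Over all tested genes 6.6% were called in either direction without ABA and 38.7% on ABA. AOS, for the single allene oxide synthase, had 44.0 FPKM in nup1-1 and 111 FPKM in Col-0 on ABA in the authors' deposited table, a log2 difference of -1.34 ± 0.15. Without ABA it had 72.2 FPKM in nup1-1 and 65.6 FPKM in Col-0 and was not called (q = 0.843). OPCL1, a peroxisomal CoA ligase gene, was higher in untreated nup1-1, at 16.2 FPKM against 8.48 FPKM in Col-0 (0.94 ± 0.24, q = 0.00349 in the authors' deposited table). OPCL1 fell on ABA in nup1-1, to 10.2 FPKM against 18.7 FPKM untreated. OPR3, the OPDA reductase gene, was not called in any of the 4 tables, with log2 fold changes between -0.24 and 0.41. DAD1, a lipase gene known from stamens, was listed at 0 in every group.

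In nup1-1 on ABA, 2 of the 4 allene oxide cyclase genes fell and 2 rose. AOC2 (AT3G25770, chromosome 3, 9406873 to 9407955) had 57.9 FPKM in nup1-1 on ABA and 320 FPKM in untreated nup1-1 in the authors' deposited table, a log2 change of -2.47 ± 0.16. AOC1, its neighbour at 9403883 to 9405250, changed alongside by -1.87 ± 0.19, to 8.22 FPKM on ABA against 30.0 FPKM untreated. In Col-0 the ABA changes of AOC2 (0.18 ± 0.23) and AOC1 (0.11 ± 0.22) were not called. AOC4, on chromosome 1, rose instead, to 54.3 FPKM on ABA against 23.4 FPKM untreated in nup1-1 (1.21 ± 0.15), and to 31.4 FPKM against 16.5 FPKM in Col-0 (0.93 ± 0.22). AOC3, the third gene of the chromosome 3 cluster, rose by 0.47 ± 0.19 in nup1-1 (q = 0.0282 in the authors' deposited table); in Col-0 its change of 0.62 ± 0.24 was not called (q = 0.0546).

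AOC2 held 42.4% of the summed AOC level in nup1-1 on ABA, against 83.1% in untreated nup1-1, and AOC4 held 39.8% against 6.08%. In Col-0 the share of AOC2 was 76.3% on ABA and 80.6% untreated. AOC1 and AOC2 are 90.3% identical over their aligned coding bases, with identical runs of up to 47 bases, so the counting could split reads between them. AOC2 and AOC4 are 74.4% identical. The plot of AOC transcripts by gene shows this change of make-up.

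**Figure D2:**
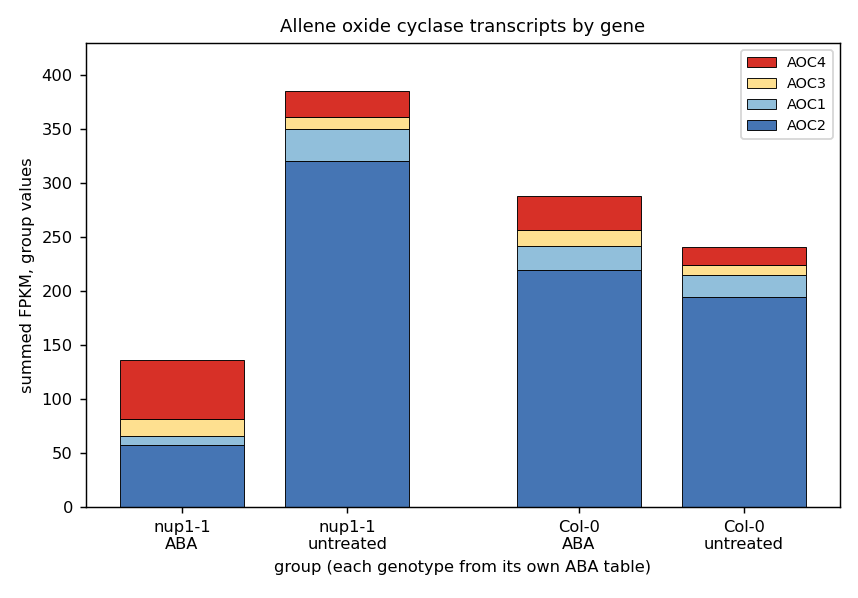
Summed FPKM of the 4 allene oxide cyclase genes by group (stacked bars, group values without replicate error; each genotype from its own ABA table). The nup1-1 bar on ABA is 136 FPKM high, of which AOC4 makes up 39.8%, while the other 3 bars lie between 241 and 385 FPKM and are mostly AOC2.

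Of the 5 genes of conjugation and turnover, ST2A, CYP94B3 and CYP94C1, whose enzymes sulfate or oxidise jasmonates, rose on ABA in both genotypes, JAR1 was not called and JMT was not tested. ST2A, for a sulfotransferase acting on a hydroxylated jasmonate, rose to 38.6 FPKM on ABA against 5.77 FPKM untreated in nup1-1, and to 14.4 FPKM on ABA against 1.75 FPKM untreated in Col-0, in the authors' deposited tables. Those log2 changes were 2.74 ± 0.18 in nup1-1 and 3.04 ± 0.27 in Col-0. ST2A was also higher in nup1-1 than in Col-0 in both media, by 1.52 ± 0.30 without ABA and 1.21 ± 0.15 on ABA, the highest log2 difference among the tested members on ABA.

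CYP94B3, for an oxidase of the active isoleucine conjugate, had 17.5 FPKM on ABA and 3.07 FPKM untreated in nup1-1, and 10.9 FPKM on ABA and 1.21 FPKM untreated in Col-0, in the authors' deposited tables. Its rise was 5.70-fold in nup1-1 and 9.02-fold in Col-0. Between genotypes it was higher in nup1-1 without ABA (1.14 ± 0.33, q = 0.0283 in the authors' deposited table) and on ABA (0.47 ± 0.15, q = 0.00784). CYP94C1, for a further oxidase of the conjugate, rose by 1.72 ± 0.30 in nup1-1 and 1.12 ± 0.30 in Col-0 and was not called between genotypes. JAR1, the conjugating enzyme gene, was not called in any table and stayed between 28.1 and 37.5 FPKM. JMT, for a methyltransferase of jasmonic acid, was at 0.368 FPKM or less in every group and was not tested.

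No gene of perception or of the MYC factors was called in any of the 4 deposited tests. Of all tested genes, 6.6% were called between genotypes without ABA and 38.7% on ABA, in either direction. For the ABA response this share was 46.6% in nup1-1 and 15.6% in Col-0. With 4 genes, the lack of calls does not set this group apart. At an unadjusted p under 0.05 there was 1 higher (MYC3, untreated genotype) and 1 lower (MYC4, ABA in Col-0). COI1 had 15.5 FPKM in untreated nup1-1 and 14.0 FPKM in untreated Col-0, and 14.2 FPKM in nup1-1 and 16.0 FPKM in Col-0 on ABA, in the authors' deposited tables. The log2 fold changes of MYC2, the best known activator of the pathway, lay between -0.22 ± 0.16 and 0.27 ± 0.23. For MYC3 the untreated genotype difference was 0.51 ± 0.22 (q = 0.183 in the authors' deposited table), and for MYC4 the ABA change in Col-0 was -0.49 ± 0.22 (q = 0.133). The SEs of these log2 fold changes lay between 0.15 and 0.40, and a missed call does not show equal levels.

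The JAZ genes did not move as a block. JAZ9 (AT1G70700, chromosome 1, 26654768 to 26657064) was, of the 34 tested members, the one with the lowest genotype difference in both media. It had 19.8 FPKM in untreated nup1-1 and 42.7 FPKM in untreated Col-0, and 5.22 FPKM in nup1-1 and 38.3 FPKM in Col-0 on ABA, in the authors' deposited tables. These log2 differences were -1.10 ± 0.22 and -2.88 ± 0.18, and the first was the single lower call among the members in untreated seedlings. JAZ6 fell on ABA in nup1-1, to 3.35 FPKM against 23.5 FPKM untreated (-2.81 ± 0.22), and was not called in Col-0, with 13.7 FPKM on ABA and 14.7 FPKM untreated.

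JAZ1, a JAZ gene known for fast induction by jasmonate, was higher in untreated nup1-1, at 18.4 FPKM against 10.4 FPKM in Col-0 (0.82 ± 0.23, q = 0.0124 in the authors' deposited table). ABA raised it in Col-0, to 22.7 FPKM against 10.4 FPKM untreated, and left it without a call in nup1-1, with 22.3 FPKM on ABA and 21.1 FPKM untreated (q = 0.723). JAZ7 was listed at 0 in untreated Col-0, with 0.547 FPKM in untreated nup1-1 and, in the ABA table, 1.3 FPKM in Col-0 on ABA; both were called in the authors' deposited tables, and no fold is given against a value of 0.

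JAZ4 fell on ABA in both genotypes, to 1.81 FPKM against 3.62 FPKM untreated in nup1-1 and to 0.947 FPKM against 3.38 FPKM untreated in Col-0 in the authors' deposited tables. Between genotypes JAZ4 was higher in nup1-1 on ABA, at 1.80 FPKM against 1.09 FPKM in Col-0 (0.72 ± 0.29, q = 0.0318 in the authors' deposited table). JAZ3 rose in both, by 0.72 ± 0.19 in nup1-1 and 0.75 ± 0.25 in Col-0. JAZ2, JAZ5, JAZ11 and JAZ12 were called lower on ABA in nup1-1, with log2 changes between -1.25 and -0.56, and JAZ2, JAZ11 and JAZ12 were also lower than in Col-0 on ABA. JAZ10, whose splice forms differ in stability, and NINJA, which links JAZ proteins to a corepressor, were not called in any table. JAZ8 was at 0.437 FPKM or less in every group and was not tested. The summed level of JAZ1 to JAZ12 was 151 FPKM in untreated nup1-1 and 153 FPKM in untreated Col-0, and 104 FPKM in nup1-1 and 182 FPKM in Col-0 on ABA. JAZ12 held the largest share of it in every group, between 32.2% and 38.0%, and JAZ9 held 5.04% in nup1-1 and 21.1% in Col-0 on ABA.

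**Figure D3:**
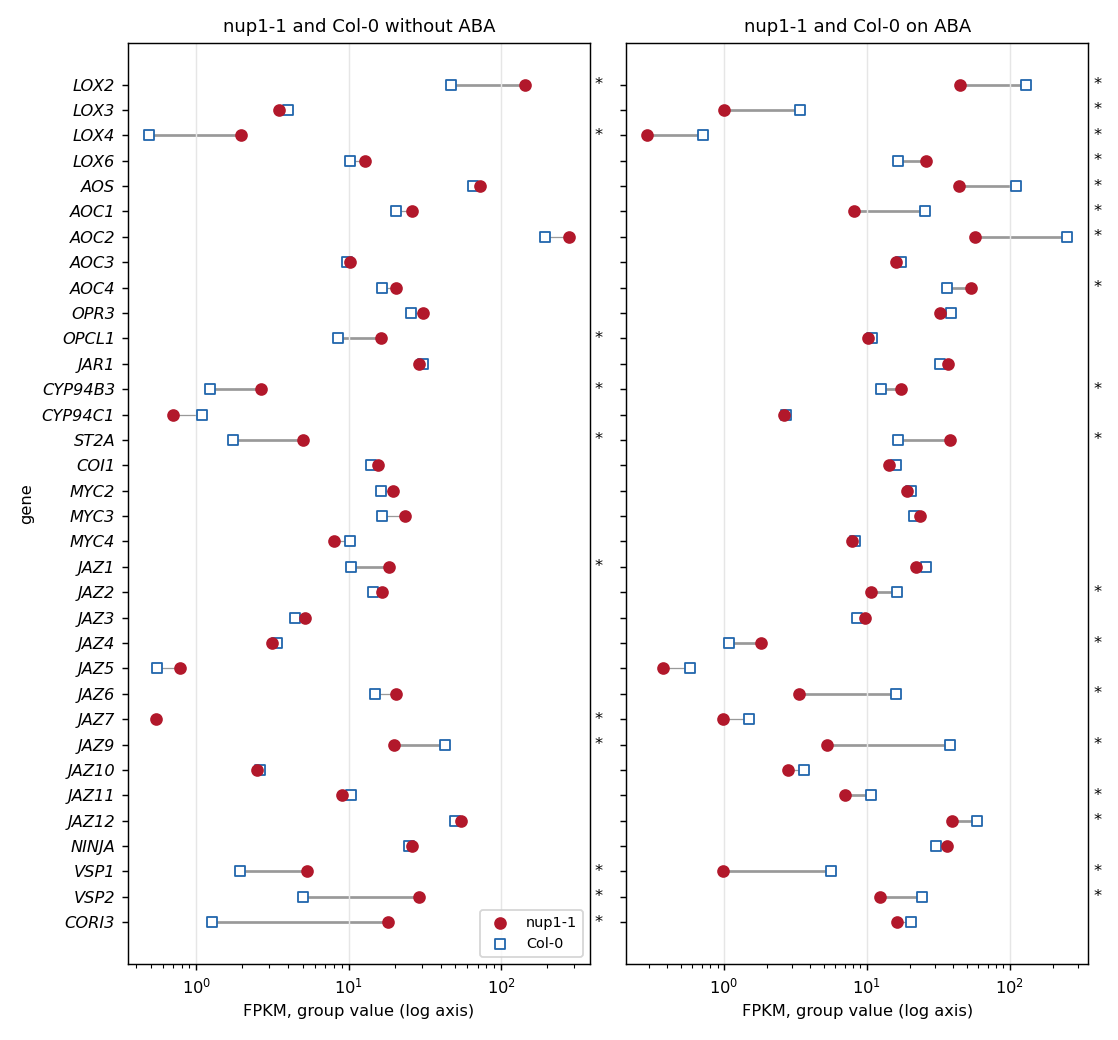
FPKM of the 34 tested members in nup1-1 (filled circles) and Col-0 (open squares), without ABA at left and on ABA at right, on log axes; group values without replicate error, and an asterisk marks a deposited q under 0.05. CORI3, VSP2 and LOX4 lie to the right in nup1-1 without ABA, and JAZ9, JAZ6, VSP1 and AOC2 lie to the left in nup1-1 on ABA.

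Of the 4 response genes of the MYC branch, CORI3, VSP1 and VSP2 were higher in untreated nup1-1 than in Col-0, VSP1 and VSP2 were lower in nup1-1 on ABA, and TAT3 was not tested. CORI3 (AT4G23600, chromosome 4, 12310619 to 12313212), an aminotransferase-like gene known as a marker of coronatine and jasmonate treatment, had 18.0 FPKM in untreated nup1-1 and 1.26 FPKM in untreated Col-0 in the authors' deposited table, 14.3-fold more (3.84 ± 0.36 on the log2 scale). On ABA it had 16.2 FPKM in nup1-1 and 20.3 FPKM in Col-0 and was not called (q = 0.169 in the authors' deposited table). ABA raised it 14.1-fold in Col-0, to 17.7 FPKM against 1.26 FPKM untreated, while nup1-1 had 16.3 FPKM on ABA and 20.8 FPKM untreated (q = 0.121). Untreated Col-0 was thus the single low group, and the other 3 groups lay close together.

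VSP2 (AT5G24770, chromosome 5, 8500476 to 8502224) and its tandem copy VSP1 (AT5G24780, 8507590 to 8508957) encode vegetative storage proteins with phosphatase activity and are classic jasmonate markers. VSP2 had 28.7 FPKM in untreated nup1-1 and 5.01 FPKM in untreated Col-0, and 12.3 FPKM in nup1-1 and 24.4 FPKM in Col-0 on ABA, in the authors' deposited tables. The genotype differences were 2.52 ± 0.31 without ABA and -0.98 ± 0.15 on ABA on the log2 scale. VSP1 had 5.28 FPKM in untreated nup1-1 and 1.92 FPKM in untreated Col-0 (1.46 ± 0.36), and 0.981 FPKM in nup1-1 and 5.63 FPKM in Col-0 on ABA (-2.52 ± 0.30). ABA raised VSP2 4.24-fold and VSP1 2.56-fold in Col-0 and changed them by -1.42 ± 0.21 and -2.62 ± 0.35 on the log2 scale in nup1-1. The coding sequences are 90.4% identical where aligned, with identical runs of up to 54 bases, so the split of reads between the copies is uncertain; their summed level was 34.0 FPKM in untreated nup1-1 and 6.93 FPKM in untreated Col-0, and 13.3 FPKM in nup1-1 and 30.0 FPKM in Col-0 on ABA, the same order as for each copy.

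TAT3, a tyrosine aminotransferase gene induced by jasmonate, was not tested: it had 0.154 FPKM in untreated nup1-1 and 0.0107 FPKM in untreated Col-0, and 0.0875 FPKM in nup1-1 and 0.285 FPKM in Col-0 on ABA, in the authors' deposited tables. The defensin genes PDF1.2 and PDF1.2b, targets of the ERF branch that ethylene and jasmonate share, and the thionin gene THI2.1 were not tested in any table. PDF1.2 had 0.275 FPKM in untreated nup1-1 and was listed at 0 in untreated Col-0 in the authors' deposited table. PDF1.2b was listed at 0 in every group, and THI2.1 did not exceed 0.167 FPKM. PDF1.2 and PDF1.2b are 93.8% identical in coding sequence, so reads of either copy could be split.

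Whether the ABA response itself differed between genotypes was asked gene by gene with a Wald test on the difference of the log2 ABA responses (nup1-1 minus Col-0), adjusted over 19487 genes. Of 32 members in this test 14 had the lower response in nup1-1 and 0 the higher, against 15 and 1 at an unadjusted p under 0.05; over all genes 11.6% were called lower and 4.67% higher. In the same test 7 of 10 touch and rapid wound-response genes (TCH3 at -3.49 ± 0.31) and 7 of 10 photosynthesis genes (RCA at -1.74 ± 0.55) were also called lower and 0 higher, so the lower response was not limited to jasmonate genes. Of 9 seed reserve genes 5 were called higher and 1 lower. Among the 5, SESA1 and OLEO1 had nup1-1 SEs of 0.55 and 0.65, against 2.18 and 2.59 from their deposited p-values. Their calls are therefore uncertain. The 3 response genes tested led: CORI3 with -4.17 ± 0.40, VSP1 with -3.98 ± 0.47 and VSP2 with -3.50 ± 0.31. LOX4 followed with -3.29 ± 0.48, LOX2 with -3.17 ± 0.30, JAZ6 with -2.71 ± 0.31 and AOC2 with -2.65 ± 0.28. The other calls were AOC1, JAZ9, LOX3, AOS, JAZ1, OPCL1 and JAZ2, between -1.98 and -0.78. Of these, LOX3 and JAZ2 were not called with SEs taken from the deposited p-values. For ABA in nup1-1 both have the smallest deposited p, from which the SE is an upper bound. The untreated groups enter both responses. For CORI3 the untreated genotype difference was 3.84 ± 0.36 and the difference on ABA was not called, whereas for JAZ6 the untreated difference of 0.47 ± 0.23 was not called (q = 0.23 in the authors' deposited table).

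Turnover, perception and MYC genes had 0 calls of 8 in this Wald test, and 0 at an unadjusted p under 0.05. Over all genes 16.3% were called in either direction, so 0 of 8 does not set these genes apart. ST2A differed by -0.30 ± 0.33, CYP94B3 by -0.66 ± 0.34, CYP94C1 by 0.60 ± 0.42, COI1 by -0.30 ± 0.46 and MYC2 by -0.36 ± 0.27. These SEs leave room for differences of more than 1 log2 unit in CYP94B3, CYP94C1 and COI1. AOC3 and AOC4, the copies that rose on ABA in nup1-1, differed by -0.15 ± 0.30 and 0.28 ± 0.27.

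**Figure D4:**
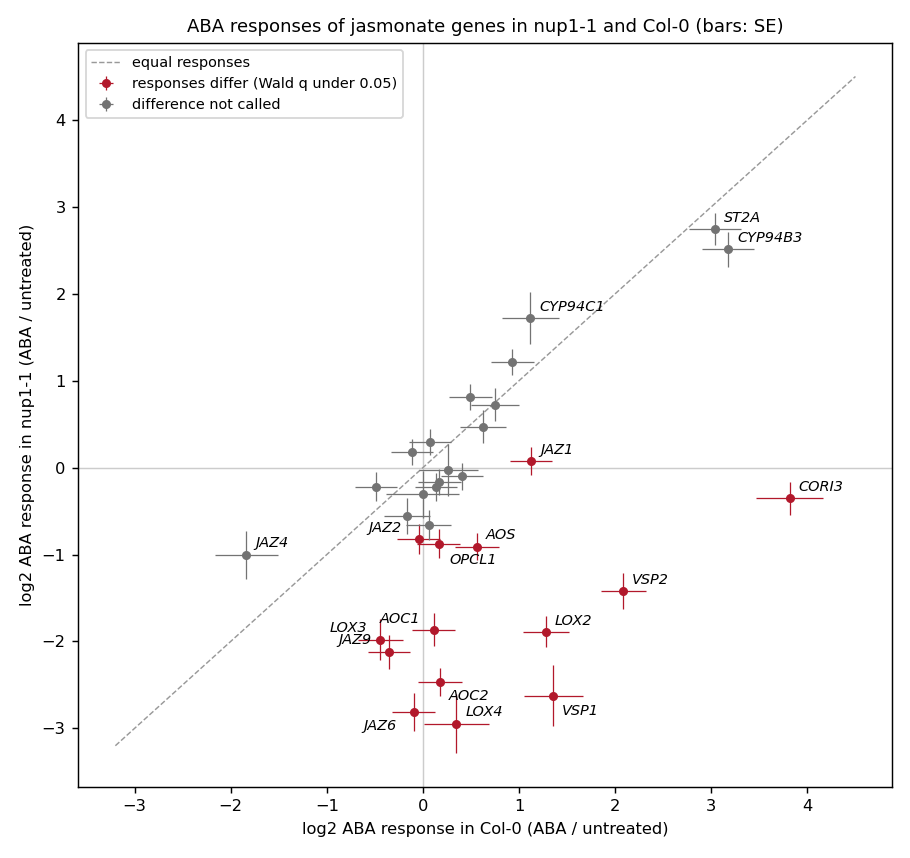
Log2 ABA response in nup1-1 (vertical axis) against that in Col-0 (horizontal axis) for the 32 members in the test of the difference, with SE bars; red points are called and the dashed line marks equal responses. CORI3, VSP1, VSP2 and LOX2 lie to the lower right, and ST2A, CYP94B3 and CYP94C1 lie near the line at the upper right.

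A further 44 jasmonate genes that are not in the set were read from a list of synthesis, transport, turnover, signalling and target genes. This list too was chosen with earlier results of these data known, so its counts are a description and no independent check. Without ABA 4 of 34 tested were higher in nup1-1 and 0 lower (2.68% and 3.92% of all tested genes), against 8 and 2 at an unadjusted p under 0.05 in the deposited test. They were ANAC055, a NAC factor gene acting downstream of MYC2, with 17.6 FPKM in nup1-1 and 2.75 FPKM in Col-0 in the authors' deposited table (2.68 ± 0.28); ORA59, an ERF gene above PDF1.2, with 8.80 FPKM in nup1-1 and 3.87 FPKM in Col-0 (1.19 ± 0.30); the 9-lipoxygenase gene LOX1 (0.77 ± 0.23); and PDF1.3, with 0.823 FPKM in nup1-1 and listed at 0 in Col-0. On ABA 6 of 35 were higher and 12 lower in nup1-1 (15.4% and 23.3% of all). ABA raised 8 and lowered 13 of 34 in nup1-1 (21.2% and 25.3% of all), and raised 9 and lowered 3 of 34 in Col-0 (7.83% and 7.79% of all).

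In the Wald test of the ABA responses 2 of 33 of these genes had the higher response in nup1-1 and 6 the lower, beside 4.67% and 11.6% of all genes. ANAC055 differed by -4.36 ± 0.38, ORA59 by -2.84 ± 0.53, HPL1, a lyase gene, by -2.31 ± 0.46, and OPR1, a relative of OPR3, by -1.46 ± 0.28. LOX5 differed by -1.24 ± 0.35 and JAV1, a VQ-motif repressor gene, by -1.07 ± 0.36. The higher responses were those of MFP2 (1.39 ± 0.30) and KAT2 (0.92 ± 0.32), both of peroxisomal beta-oxidation, which the jasmonate route shares with seed oil breakdown. ANAC055 had 1.58 FPKM on ABA and 20.2 FPKM untreated in nup1-1, and 4.40 FPKM on ABA and 2.74 FPKM untreated in Col-0, in the authors' deposited tables.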

How the data were processed

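Group values of 12 RNA samples in 4 groups of 3 were read from 4 comparison tables. Per the submitters' processing notes FastQC, Trimmomatic, TopHat and build TAIR10 were used. Program versions, and which program made the tables, are not stated in those notes. The authors deposited 1 FPKM value per group and gene (a unit read from the column layout, since no header names it), a test statistic, which is a score, and p-values and q-values. The deposited q-values were equal to Benjamini-Hochberg values over the tested genes to within 1e-06. Log2 fold changes were recomputed from FPKM with no pseudocount. The SE is the log2 fold change divided by the statistic times a factor per table (1.74) that makes its normal p match the deposited p. The 2-sided Wald test of the ABA responses needs 1 FPKM or more in the highest group and is approximate. It was run on simulated data whose noise was drawn from these same SEs, so that run could not check the SEs.

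Members and lists were chosen with earlier results of these data known. All 41 members matched a TAIR10.1 RefSeq locus, which gave symbols and sequences; gene coordinates in the text are those of the authors' tables. AT4G14720 was left out because its row joins it with a neighbour. Levels were printed for most members called in at least 2 tables or in the Wald test and for some others. The rest are given by log2 change, range or count. Alternatives were a q of 0.01, a filter at 1 FPKM, a minimum log2 change of 1, a pseudocount of 1, centring, and other inputs to the Wald test. Python 3.11.15, pandas 2.3.3 and scipy 1.17.1 were used.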

Additional observations from a re-analysis of the deposited data

Results flagged for a closer look

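The ABA response differed between nup1-1 and Col-0, by the Wald test of the difference itself at an adjusted q under 0.05, in 14 of 32 members, each lower in nup1-1, beside 11.6% of all genes called lower and 4.67% higher. In the same test 7 of 10 touch genes and 7 of 10 photosynthesis genes were called lower, and their part in the members' differences was not tested. Response genes: CORI3 (-4.17), VSP1 (-3.98) and VSP2 (-3.50) on the log2 scale. Synthesis genes: LOX4 (-3.29), LOX2 (-3.17), AOC2 (-2.65), AOC1 (-1.98), LOX3 (-1.54), AOS (-1.47) and OPCL1 (-1.04). JAZ genes: JAZ6 (-2.71), JAZ9 (-1.76), JAZ1 (-1.05) and JAZ2 (-0.78), of which JAZ2 lies nearest the threshold (q = 0.0395). LOX3 and JAZ2 lose the call with SEs from p-values, which for both genes on ABA in nup1-1 are upper bounds.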

How the results depend on the processing

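No paired analysis was possible because the tables hold 1 value per group, and for the same reason no replicate could be left out. With a log2 change of at least 1 also required, the members called higher fell to 4 for ABA in nup1-1 and to 1 for genotype on ABA, from 7 and 5; by construction such a rule removes smaller changes. All other counts of called members stayed within 1.5 times under a q of 0.01, the 1 FPKM filter and, for the Wald test, SEs from p-values, the genotype tables, no filter and centring. No called member changed direction under centring. LOX3 and JAZ2 lost their Wald call with SEs from p-values, which keep 12 of the 14 calls while the calls over all genes go to 1189 against 3181. For ABA in nup1-1 both genes have the smallest deposited p, 5e-05. An SE worked from that p is an upper bound, so these losses may reflect the limit on p. Depth per sample is unknown, so the least detectable change of the low members cannot be given. The Wald test treats both ABA tables as independent.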
